A study of Mus musculus with 8 samples.

Results

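T cells that carried neither Foxp3 nor CD8 transcripts made up 307 of the 10605 CD45+ cells kept from 8 mouse mammary tumors. Members were chosen by their measured transcripts: a cell was one when it held at least 2 unique molecular identifiers (UMIs, each marking 1 captured transcript) of Cd3d, Cd3e and Cd3g together, none of Foxp3, Cd8a, Cd8b1 or Ncr1, and at most 1 of Csf1r. These gate genes chose the cells and are not read as results,. The tumors grew from E0771, a mouse triple-negative mammary cancer line (parental, 2 mice), or from E0771-Res1 or E0771-Res2 (3 mice each), 2 lines derived from E0771 tumors that had relapsed after combined chemoimmunotherapy, each studied as 1 line. All tumors were taken on day 18 after transplantation into the mammary fat pad, and the labels name no drug for these mice. Sorted CD45+ cells of each mouse were tagged, pooled and sequenced by droplet-based 3′ single-cell RNA-seq, and no cell barcode occurred in more than 1 mouse. Each mouse gave 14 to 59 members and 5036667 to 18894504 UMIs in all. The p-values between lines measure the spread between 2 or 3 mice per line. Those between classes of cells measure the spread of within-mouse differences over the mice fitted, taken across lines.

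CD4+ T cells read peptides on MHC class II and act mainly through help, by cytokines and by surface ligands such as CD40 ligand. Those that carry FOXP3 restrain other T cells, and those without it are called conventional, and in tumors they show costimulatory receptors of the TNF receptor family (OX40, encoded by Tnfrsf4, and GITR, encoded by Tnfrsf18) and ICOS. Gamma delta T cells build their receptor from other chains, encoded by Trdc and the Tcrg genes, usually lack CD4 and CD8, and in mouse tissues include cells that make interleukin 17.

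Markers outside the gate showed that the members were not uniform, and the break fell at the number of Cd3 UMIs. Of the 184 members with 3 or more Cd3 UMIs, 93.5% held a UMI of a T cell receptor alpha or beta constant gene (Trac, Trbc1 or Trbc2), 57.6% held one of Lck, the kinase that starts T cell receptor signalling, and 56.5% one of Thy1, a T cell surface protein. Of the 123 members with exactly 2 Cd3 UMIs, 35.8% held an alpha or beta constant gene, 7.32% held Lck and 7.32% held Thy1. Myeloid cells, taken as the 3433 cells with at least 2 Csf1r UMIs and no Cd3 UMI, gave a background of 20.8% for the constant genes and 3.58% for Lck. Just outside the gate, the 858 cells with exactly 1 Cd3 UMI stood at 18.1% and 3.61%. The median depths were 5907.5 UMIs per cell for members with 3 or more Cd3 UMIs, 5474 for members with 2, 8522 for myeloid cells and 5648 for the cells with 1. Members with 2 Cd3 UMIs thus stood between the T cells and the myeloid background on each of these genes, nearer to the background on Lck and Thy1, and the label of T cell held for them only in part. For this reason the main results below are also given for members with 3 or more Cd3 UMIs, a threshold chosen with earlier results of these data known.

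**Figure D1:**
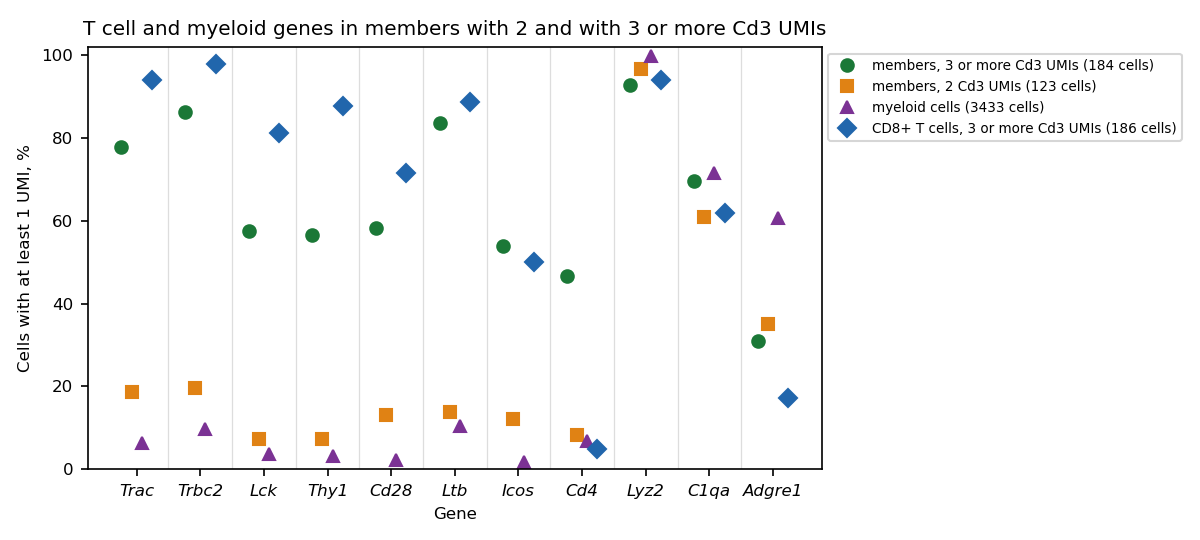
Percent of cells (y axis) with at least 1 UMI of each gene (x axis) in members with 3 or more Cd3 UMIs (184 cells, circles), members with 2 (123 cells, squares), myeloid cells (3433 cells, triangles) and CD8+ T cells with 3 or more (186 cells, diamonds). Squares for Trac, Lck, Thy1 and Ltb lie near the triangles, at 18.7% for Trac and 7.32% for Lck, while circles reach 77.7% and 57.6%, and Lyz2 is above 90% in all 4.

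Myeloid RNA was present in every class of cell. Lyz2, which encodes lysozyme in macrophages and monocytes, had a UMI in 92.9% of members with 3 or more Cd3 UMIs and in 99.9% of myeloid cells, and C1qa, a complement gene of macrophages, in 69.6% and 71.5%. A list of myeloid marker genes took a median of 3.95% of the UMIs of a member with 2 Cd3 UMIs, 0.933% of one with 3 or more and 4.68% of a myeloid cell. Summed per mouse, the list held 2.95% to 3.66% of the members' UMIs, against 0.41% to 1.13% in CD8+ T cells, 1.15% to 2.44% in Foxp3+ T cells and 4.70% to 5.84% in myeloid cells. The members' range was 2.95% to 3.28% for parental mice, 3.16% to 3.41% for E0771-Res1 mice, and 2.97% to 3.66% for E0771-Res2 mice, so the lines overlapped. Scrublet, a caller of doublets, marked 55 of all kept cells. A cut was placed at the top 5% of scores of each mouse, and 14 to 97 cells per mouse scored above it, 8 members among them.

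The other thresholds cut through continuous values. There were 81 cells with exactly 1 Foxp3 UMI that passed every other gate, and 95.1% of them held an alpha or beta constant gene. With 2 or more Foxp3 UMIs there were 104 such cells. Members can therefore include regulatory T cells whose Foxp3 was not captured. Another 19 cells had exactly 1 CD8 UMI and 27 held Ncr1, which encodes the NK cell receptor NKp46. Of the members, 107 held the 1 Csf1r UMI allowed, and 63 cells lay just outside with 2.

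Within the members, 96 cells held a Cd4 UMI and 211 held none. Among members with 3 or more Cd3 UMIs, Cd4 was seen in 46.7%. In Foxp3+ T cells under the same Cd3 threshold, which are CD4+ by lineage, it was seen in 69.2%. Those Foxp3+ T cells were deeper, with a median of 7227 UMIs against 5907.5 for the members. CD8+ T cells gave 4.84% and myeloid cells 6.67%. Cd4-zero members therefore include cells whose Cd4 was not captured, and the median depth was 6604.5 UMIs in Cd4-positive and 5402 in Cd4-zero members.

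Costimulatory and checkpoint receptors were detected in most Cd4-positive members with 3 or more Cd3 UMIs (86 cells). Tnfrsf18 was seen in 81.4% of them, Tnfrsf4 in 74.4%, Ctla4, an inhibitory receptor that competes with CD28, in 66.3% and Icos in 62.8%. These shares lay below those of 172 Foxp3+ T cells (95.4%, 97.1%, 87.8% and 78.5%) and above the myeloid background of 7.89%, 8.51%, 6.90% and 1.60%. The part of regulatory T cells with uncaptured Foxp3 in these shares was not tested. In 186 CD8+ T cells Tnfrsf4 stood at 43.0%, although those cells were deeper, with a median of 10399 UMIs against 6648. Pdcd1, which encodes PD-1, was seen in 27.9% of the Cd4-positive members, Lag3 in 38.4% and Tox, a transcription factor of exhausted T cells, in 37.2%, and in CD8+ T cells these stood at 59.7%, 71.0% and 72.6%.

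Ifng, the type 1 helper cytokine, had a UMI in 37.2% of Cd4-positive members against 17.4% of Foxp3+ and 75.3% of CD8+ T cells, with 3.76% in myeloid cells. Other helper cytokines were seen in few cells. Among all 307 members, Il4 was detected in 1 cell, Il13 in 1, Il21 in 4, Il2 in 6 and Cd40lg, the gene of CD40 ligand, in 12. Cxcr5, the homing receptor of follicular helper cells, was detected in 6. Gata3, the type 2 regulator, was seen in 34.9% and Tbx21, the type 1 regulator, in 17.4% of the Cd4-positive members, against 41.3% and 20.4% of Foxp3+ T cells.

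The Cd4-zero members without Trdc (83 cells with 3 or more Cd3 UMIs) carried the same receptors in fewer cells. Icos was detected in 48.2% of them, Ctla4 in 44.6%, Tnfrsf4 in 53.0%, Tnfrsf18 in 63.9% and Pdcd1 in 9.64%. Trac was seen in 77.1%, against 86.0% of Cd4-positive members. Tcf7, a transcription factor of naive and memory T cells, stood at 31.3% against 22.1%, Il7r, the interleukin 7 receptor, at 51.8% against 43.0%, and Klf2, which keeps T cells in circulation, at 63.9% against 51.2%. Il7r and Klf2 were also frequent in myeloid cells, at 26.9% and 59.3%, while Tcf7 was not, at 0.93%. These are shares of pooled cells of lower median depth (5171 UMIs) and were not tested.

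**Figure D2:**
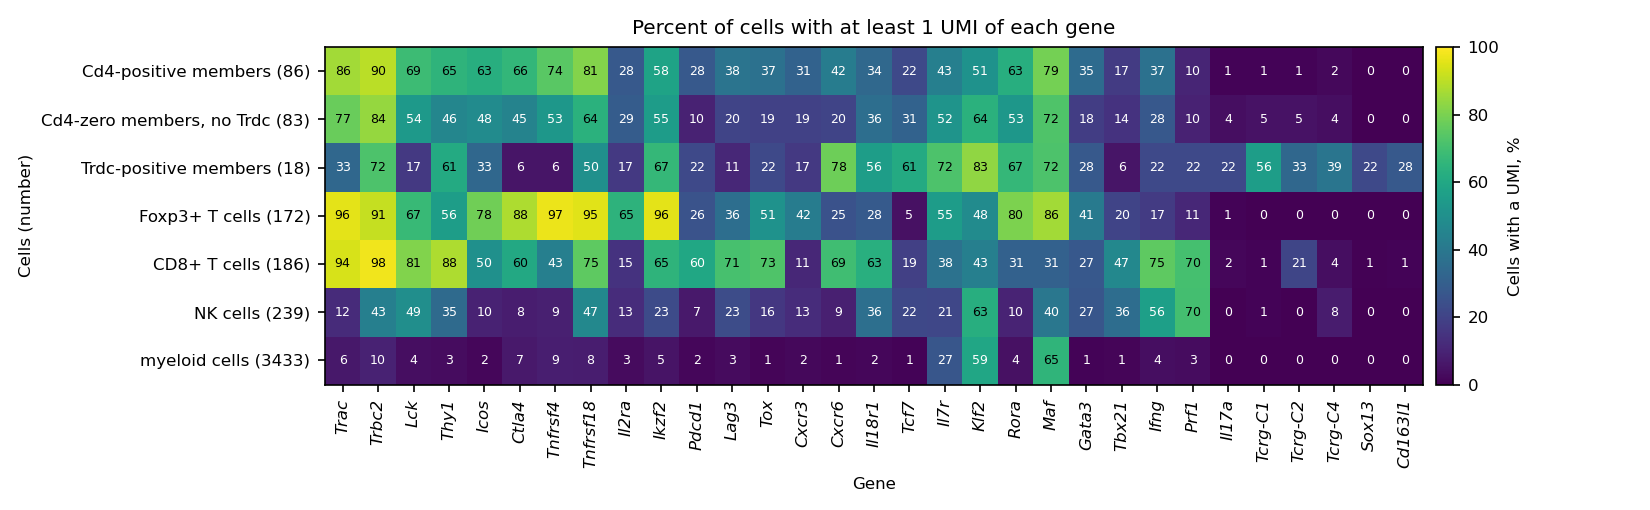
Percent of cells with at least 1 UMI of each gene (columns, colour scale 0 to 100%) in 7 groups of cells (rows), with cell numbers in brackets; all T cell rows except the Trdc-positive one hold cells with 3 or more Cd3 UMIs. The Cd4-positive row is high from Icos to Tnfrsf18, the Foxp3+ row is higher still, and the Trdc-positive row stands apart at Ctla4 (5.56%), Cxcr6 (77.8%), Tcf7 (61.1%) and the Tcrg genes.

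Trdc marked 18 Cd4-zero members, 1 to 3 in each of the 8 mice. Of these, 13 held a gamma constant gene (Tcrg-C1, Tcrg-C2 or Tcrg-C4), 7 held a gamma or delta variable gene, and 6 held Trac, of which 3 had no gamma constant gene. NK cells also carry Trdc transcripts, with a UMI in 20.1% of 239 cells, but Tcrg-C1 was seen in 0.84% of NK cells and in 55.6% of the Trdc-positive members. Trdc or any of these gamma constant genes was seen in 25.9% of NK cells and 25.3% of CD8+ T cells. The share was 1.08% in Foxp3+ T cells and 0.96% in myeloid cells. Klrb1c, Klre1 or Eomes, genes of NK cells, were seen in 2 of the 18. Il17a, which encodes interleukin 17A, was seen in 4 of the 18 (22.2%), against 3.61% of the Cd4-zero members without Trdc and with 3 or more Cd3 UMIs and 0.09% of myeloid cells, and genes of the gamma delta cells that make it (Sox13, Blk, Cd163l1 or 5830411N06Rik) were seen in 9 of the 18.

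Ctla4 and Tnfrsf4 were each detected in 5.56% of the Trdc-positive members, a share no higher than the myeloid background. Cxcr6, a chemokine receptor of tissue-resident lymphocytes, was seen in 77.8%, Il7r in 72.2%, Tcf7 in 61.1% and Klf2 in 83.3%. The median depth of these 18 cells was 4225.5 UMIs, lower than that of the Cd4-positive members, in which Cxcr6 stood at 41.9%. With at most 3 cells per mouse, no test over mice was made for this group.

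Summed per mouse and compared within mice, Cd4-positive members were higher than Cd4-zero members in the receptors OX40 and GITR and lower in several myeloid genes. The classes also differed in makeup. Cd4 was seen in 8.13% of members with 2 Cd3 UMIs and in 46.7% of those with 3 or more. Lck was seen in 65.6% of Cd4-positive and 24.6% of Cd4-zero members, and the part of this makeup in the differences was not tested. Tnfrsf4 was 1.88 higher on the log2 scale (SE 0.24, edgeR adjusted p = 0.00489) and Tnfrsf18 1.53 higher (SE 0.24, edgeR adjusted p = 0.0156), each in 5 of 5 mice. The 5 mice were those with at least 10 cells of both kinds: E0771-Res1 replicates 1 and 3 and the 3 E0771-Res2 mice. In all, 11 of 2287 genes passed (0.481%), 7 higher (0.306%) and 4 lower (0.175%), and 15.6% of the genes tested differed in 1 direction in all 5 mice. Besides the receptors, Rgs16, a regulator of G protein signalling, Sdf4, a calcium-binding protein of the secretory pathway, Cd82, AW112010 and Ltb, the cytokine lymphotoxin beta, were higher by 0.86 to 1.51.

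Tnfrsf4 stood at 671 CPM (UMIs of the gene for every 1000000 UMIs of the summed cells) in the Cd4-positive and 271 in the Cd4-zero members of E0771-Res1 replicate 1 and at 557 and 79.3 in replicate 3. In E0771-Res2 the pairs of Tnfrsf4 values were 352 and 121 in replicate 1, 790.0 and 267 in replicate 2, and 780 and 115 in replicate 3. The Cd4-positive value was higher in each pair. In the parental mice, which held 9 and 5 Cd4-positive cells and were not fitted, Tnfrsf4 was 446 against 317 in replicate 1 and 435 against 509 in replicate 3.

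The 4 genes lower in Cd4-positive members were Mmp12, a macrophage protease, by a log2 change of -2.89, Clec4e, a receptor of myeloid cells, by -2.79, Il1rn, the interleukin 1 receptor antagonist, by -1.70, and Ccl3, a chemokine, by -1.17. Of the 22 tested genes of the myeloid marker list none passed, 21 had a negative log2 change, and the list's median was -0.47, beside -0.01 over all genes. In the 5 mice the list took 1.29% to 3.08% of UMIs in Cd4-positive and 2.92% to 4.00% in Cd4-zero members, and its part in the result was not tested. Icos (1.35, edgeR adjusted p = 0.0677), Ctla4 (1.45, 0.0883), Trac (1.19, 0.0677) and Klf2 (-0.99, 0.166) did not pass. Of the list of T cell receptor and signalling genes, 0 of 15 passed with a median of 1.02, and of the naive and memory list 0 of 5 with a median of -0.65.

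With 3 or more Cd3 UMIs, 4 mice had enough cells and 1 of 1553 genes passed, Mmp12 at -3.67 (edgeR adjusted p = 0.00747). There the differences were 1.23 for Tnfrsf4 (edgeR adjusted p = 0.13), 0.97 for Tnfrsf18 (0.453) and 1.05 for Sdf4 (0.578). The count of 11 also moved with single mice, to 1 without E0771-Res2 replicate 3, 3 without E0771-Res1 replicate 1, 17 without E0771-Res2 replicate 1 and 25 without E0771-Res2 replicate 2. The call for Tnfrsf4 was lost without E0771-Res2 replicate 3 (1.68).

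Sdf4, Tnfrsf4 and Tnfrsf18 are neighbors. In GENCODE on GRCm38 all are protein-coding genes on the plus strand of chromosome 4, with Sdf4 at chr4:155992872-156013610, Tnfrsf4 at chr4:156013843-156016612, 232 bases on, and Tnfrsf18 at chr4:156026164-156028895, another 9551 bases on. A long antisense gene overlaps Tnfrsf18. Whether reads of 1 of these genes were counted for a neighbor was not tested.

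Compared with CD8+ T cells of the same mice, the members were lower in cytotoxic and cell cycle genes and in Pdcd1, Lag3 and Tox, and higher in OX40, GITR, ICOS, Il7r and Maf. Prf1, which encodes the pore-forming protein perforin, differed most of the genes named here, by a log2 change of -4.41 (SE 0.27, edgeR adjusted p = 7.27e-08). Nkg7, a protein of cytotoxic granules, was lower by -3.24, Ifng by -3.05 and Gzmb, granzyme B, by -2.28, each in 7 of 7 mice, where 31.1% of the genes tested differed in 1 direction in all. Altogether 1219 of 3039 genes passed (40.1%), 631 higher (20.8%) and 588 lower (19.3%), over the 7 mice other than E0771-Res2 replicate 1, which held under 10 CD8+ T cells. With 3 or more Cd3 UMIs the log2 changes were -4.26 for Prf1, -2.62 for Nkg7, -2.43 for Ifng and -1.98 for Gzmb, and all passed. CD8 was part of both gates, so genes that go with CD8 in T cells were set apart by the choice of cells.

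Prf1 was at 45.1 CPM in the members of parental replicate 1 and 18.9 in replicate 3. It was at 19.0, 32.9 and 9.3 in E0771-Res1 replicates 1 to 3, and at 27.7, 11.3 and 11.4 in E0771-Res2 replicates 1 to 3. In CD8+ T cells Prf1 lay between 155 (E0771-Res2 replicate 2) and 893 (E0771-Res1 replicate 1). The lowest CD8+ value was above the highest value of the members. Prf1 lies at chr10:61297833-61304680 on the plus strand (GRCm38).

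Of the cytotoxic list, 8 of 10 tested genes passed, all lower, with a median log2 difference of -1.97 beside -0.05 over all genes; with 3 or more Cd3 UMIs, 8 of 10 passed, all lower. Of the cell cycle list, 14 of 14 were lower, with examples Birc5 at -2.54 and Stmn1 at -2.54, and 16 of 16 were lower at 3 or more Cd3 UMIs. The checkpoint and costimulation list split, with 5 of 14 genes higher and 8 lower. Its higher genes were led by Tnfrsf4 (1.33) and Vsir (1.21), the checkpoint receptor VISTA that myeloid cells also carry, and included Ctla4 (0.94) and Icos (0.82), and its lower genes by Cd160 (-2.44), Pdcd1 (-2.42), Lag3 (-2.24) and Tox (-2.14). At 3 or more Cd3 UMIs the differences were 1.86 for Tnfrsf4, 1.46 for Ctla4, 1.43 for Icos and 1.05 for Tnfrsf18, larger than among all members, and -1.89 for Pdcd1 and -1.56 for Tox, smaller.

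Tnfrsf4 ran from 222 to 474 CPM in the members, highest in parental replicate 3 and lowest in E0771-Res1 replicate 3. In CD8+ T cells it ran from 63.6 to 359, highest in E0771-Res2 replicate 2. The ranges overlapped, but Tnfrsf4 was higher in the members in 7 of 7 mice. Icos was higher in 6 of 7 mice and lower in E0771-Res1 replicate 2, where members stood at 43.8 and CD8+ T cells at 122.

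Maf, a transcription factor of helper and regulatory T cells that macrophages also express, was higher by 2.49 (SE 0.24, edgeR adjusted p = 9.07e-07), and Ccr2, a chemokine receptor of monocytes and activated T cells, by 2.19. Maf was detected in 79.1% of Cd4-positive members with 3 or more Cd3 UMIs and in 31.2% of CD8+ T cells, but also in 65.3% of myeloid cells. Il7r was higher by 1.09 and Klf2 by 1.00. Of the chemokine receptor list 4 of 7 tested genes were higher, among them Ccr2, Ccr1 (1.70) and Cxcr4 (1.61), and Cxcr6 was lower (-1.51). Trac was lower by -0.83 and Cd28 by -0.64 among all members, but at 3 or more Cd3 UMIs Trac differed by -0.30 (edgeR adjusted p = 0.249) and Cd28 by -0.06 (0.853), and neither passed.

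Of the myeloid marker list, 19 of 21 tested genes were higher in the members, with Lyz2 at 3.02, C1qb at 2.61 and C1qc at 2.56. The stricter gate left 18 of 20 higher, with Lyz2 at 1.68. Of the interferon response list, 19 of 20 were higher, led by Rsad2 (2.23), Ifit2 (2.10) and Gbp2 (2.09), and 16 of 20 under the stricter gate. Chil3 (3.73) and Ifitm6 (2.83), genes of monocytes, were among the largest differences. The myeloid list summed to 0.597% to 2.93% of UMIs per mouse in members with 3 or more Cd3 UMIs and 0.396% to 1.41% in such CD8+ T cells, and its part in the genes that macrophages also express was not tested. C1qbp, which encodes a mitochondrial protein that binds C1q, was lower by -1.16 (SE 0.26, edgeR adjusted p = 0.00171) and in 6 of 7 mice, and by -1.06 under the stricter gate (edgeR adjusted p = 0.00494). Of the oxidative phosphorylation list 9 of 29 genes were lower and none higher (7 of 29 lower under the stricter gate), beside 19.3% lower and 20.8% higher over all genes, and the list's median was -0.24 beside -0.05.

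Over 6 mice and at 3 or more Cd3 UMIs, 819 of 2844 genes passed (28.8%). The calls shared in direction numbered 764, which is 62.7% of the calls among all members and 93.3% of the calls under the stricter gate. Ccl5 (-0.61, edgeR adjusted p = 0.0683) and Ccr7 (0.30, edgeR adjusted p = 0.675) did not pass.

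Compared with Foxp3+ T cells of 6 mice, the members were lower in the receptors of regulatory T cells and in cell cycle genes, and higher in the chemokine gene Xcl1. Il2ra, the interleukin 2 receptor alpha chain, was lower by -1.92 (SE 0.20, edgeR adjusted p = 1.85e-05), Tnfrsf4 by -1.85, Ctla4 by -1.70, Tnfrsf18 by -1.63 and Icos by -1.33, each in 6 of 6 mice, as 19.1% of the genes tested were in 1 direction or the other. In all, 537 of 3081 genes passed (17.4%), 320 higher (10.4%) and 217 lower (7.04%), and 347 passed without E0771-Res2 replicate 3. At 3 or more Cd3 UMIs 142 of 2834 passed (5.01%), 77 higher and 65 lower, and 136 of these were shared in direction, which is 25.3% of the calls among all members. There the log2 changes were -1.49 for Il2ra, -1.37 for Tnfrsf4, -1.25 for Ctla4, -1.18 for Tnfrsf18 and -0.83 for Icos, and all passed. Foxp3 was part of both gates, so the direction of genes that go with FOXP3 was tied to the choice of cells.

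Of the regulatory T cell list, 7 of 10 tested genes were lower and none higher, with a median of -1.67 beside 0.00 over all genes, and 6 of 10 were lower at 3 or more Cd3 UMIs. Tnfrsf9, the costimulatory receptor 4-1BB, was lower by -1.95, and Ikzf2, the transcription factor Helios, by -1.70. Of the cell cycle list 8 of 12 were lower, led by Mki67 (-2.13), Birc5 (-2.04) and Stmn1 (-2.01), and 7 of 12 at 3 or more Cd3 UMIs. The histone genes Hist1h1b (-2.86) and Hist1h2ae (-2.34), expressed during DNA replication, were the largest differences downward. Gzmb, which activated regulatory T cells also make, was lower by -1.65. The checkpoint and costimulation list had 9 of 12 lower, and 6 of 12 at 3 or more Cd3 UMIs.

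Tnfrsf4 was at 1311 CPM in the Foxp3+ T cells of parental replicate 1 and 1089 in replicate 3. In E0771-Res1 it was at 1293, 1359 and 1195 in replicates 1 to 3, and in E0771-Res2 at 1116, 1523 and 1414. All lay above the highest value of the members, 474. The members thus stood between CD8+ and Foxp3+ T cells in Tnfrsf4, with the CD8+ range overlapping theirs and the Foxp3+ range not. Members can include regulatory T cells with uncaptured Foxp3, and their part in these values was not tested.

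Xcl1, a chemokine that attracts cross-presenting dendritic cells, was 2.47 higher in the members (SE 0.29, edgeR adjusted p = 7.83e-05) and 3.00 higher at 3 or more Cd3 UMIs. It was at 108 CPM in the members of parental replicate 1 and 511 in replicate 3, at 140, 208 and 116 in E0771-Res1 replicates 1 to 3, and at 453, 48.9 and 209 in E0771-Res2 replicates 1 to 3. In Foxp3+ T cells Xcl1 ran from 0 (E0771-Res1 replicate 2) to 51.6 (E0771-Res1 replicate 1). The ranges met only at E0771-Res2 replicate 2, the lowest of the members, and Xcl1 was higher in the members in 6 of 6 mice fitted. Xcl1 lies at chr1:164931644-164935527 on the minus strand (GRCm38).

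Klf2 was higher than in Foxp3+ T cells by 1.13 and Cxcr6 by 0.84, the latter losing its call without parental replicate 1 (0.66) or E0771-Res2 replicate 3 (0.81). Klf2 at 3 or more Cd3 UMIs was 1.18 and Cxcr6 1.38 higher, and Tcf7, which was too low for a test among all members, was 2.55 higher (edgeR adjusted p = 0.00123). Ifng was 0.94 higher (edgeR adjusted p = 0.0929) among all members and 1.38 (0.0427) at 3 or more Cd3 UMIs. It passed without E0771-Res2 replicate 2 (1.49). Il7r (0.07, edgeR adjusted p = 0.886), Maf (-0.45, 0.076) and Lag3 (-0.70, 0.0877) did not pass.

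Of the myeloid marker list 19 of 22 genes were higher than in Foxp3+ T cells, with a median of 0.84, and 5 of 21 at 3 or more Cd3 UMIs. Among the other genes that were higher, Chil3 (2.35), Ifitm6 (2.06), Tgm2 (1.73) and Ccr1 (1.70) are also genes of monocytes and macrophages. Of the interferon response list 8 of 21 were higher and 4 lower, and at 3 or more Cd3 UMIs none was higher and 1 lower. Of the dissociation stress list, genes that rise when tissue is digested, 9 of 17 were higher, led by Atf3 (1.51) and Fos (1.06), and 7 of 17 at 3 or more Cd3 UMIs. The part of dissociation and of myeloid RNA in these differences was not tested.

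**Figure D3:**
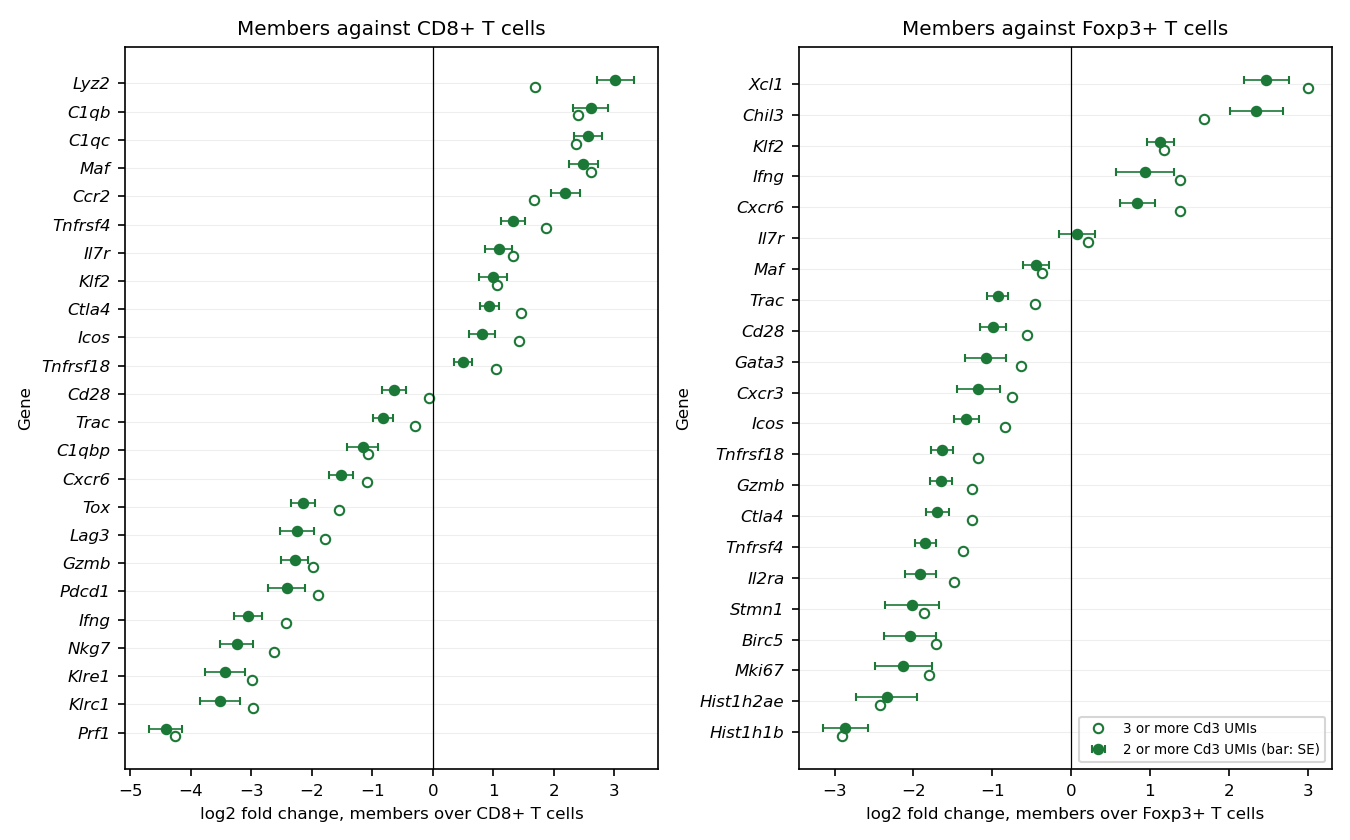
Log2 fold change (x axis) of named genes (y axis) in members over CD8+ T cells (left, 7 mice) and over Foxp3+ T cells (right, 6 mice); filled points with SE bars are all members, open points members with 3 or more Cd3 UMIs (6 mice in each panel). Prf1 (-4.41) and Nkg7 (-3.24) lie far left of 0 on the left panel and Xcl1 (2.47) far right on the right panel, while Tnfrsf4 lies right of 0 on the left panel (1.33) and left of 0 on the right (-1.85).

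The study compared parental with resistant tumors, so the share of the members was compared next. Among CD45+ cells the members made up 2.94% and 2.31% in parental mice (2.63% ± 0.44, SD, n = 2). For E0771-Res1 the values were 2.67%, 2.48% and 3.52% (2.89% ± 0.55, n = 3), and for E0771-Res2 they were 2.44%, 3.57% and 3.01% (3.01% ± 0.56, n = 3). The lines overlapped, and the resistant mice were 0.32 percentage points higher (exact two-sided permutation p = 0.464, adjusted p = 0.80 over 16 comparisons). At 3 or more Cd3 UMIs the difference was -0.11 points.

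Among CD3+ cells, defined as those with at least 2 Cd3 UMIs and at most 1 Csf1r UMI (746 cells), E0771-Res2 stood apart. The members made up 30.3% and 36.8% of CD3+ cells in parental mice (33.6% ± 4.64, n = 2). For E0771-Res1 the values were 31.6%, 35.7% and 40.2% (35.8% ± 4.33, n = 3). In E0771-Res2 they made up 52.9%, 47.4% and 56.2% (52.2% ± 4.46, n = 3), and each of these values was above every mouse of the other lines. The difference was 18.6 points from parental and 16.3 from E0771-Res1, each at an exact two-sided permutation p = 0.10, the smallest p these mice allow, and adjusted p = 0.533. Over all 6 resistant mice the difference from parental was 10.4 points (exact permutation p = 0.214).

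E0771-Res2 stayed highest at 3 or more Cd3 UMIs, at 41.0% ± 3.01, with 24.1% ± 6.29 in E0771-Res1 and 27.0% ± 7.51 in parental mice. E0771-Res1 there lay below parental mice, unlike in the main result. After each cell was thinned to 2000 UMIs, the shares were 62.2% ± 6.69 in E0771-Res2, 48.9% ± 0.34 in E0771-Res1 and 45.6% ± 8.22 in parental mice. E0771-Res2 did not overlap the other lines in either. CD8+ T cells moved the other way as a share of the same CD3+ cells, with 42.2% ± 3.88 for parental mice, 27.4% ± 1.61 for E0771-Res1 and 15.04% ± 4.36 for E0771-Res2. The difference between resistant and parental mice was -21.0 points (unadjusted exact permutation p = 0.0357, the smallest these mice allow, and out of reach of the threshold once either parental mouse is left out). This share was not among the 16 comparisons adjusted together, and its p was not adjusted. Foxp3+ T cells were at 21.5% ± 0.68, 24.0% ± 4.03 and 25.2% ± 2.64 of CD3+ cells, in the same order of lines. As shares of 1 total these values are not independent, and CD3+ cells themselves were 8.00% ± 2.43, 8.06% ± 0.97 and 5.83% ± 1.52 of CD45+ cells.

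**Figure D4:**
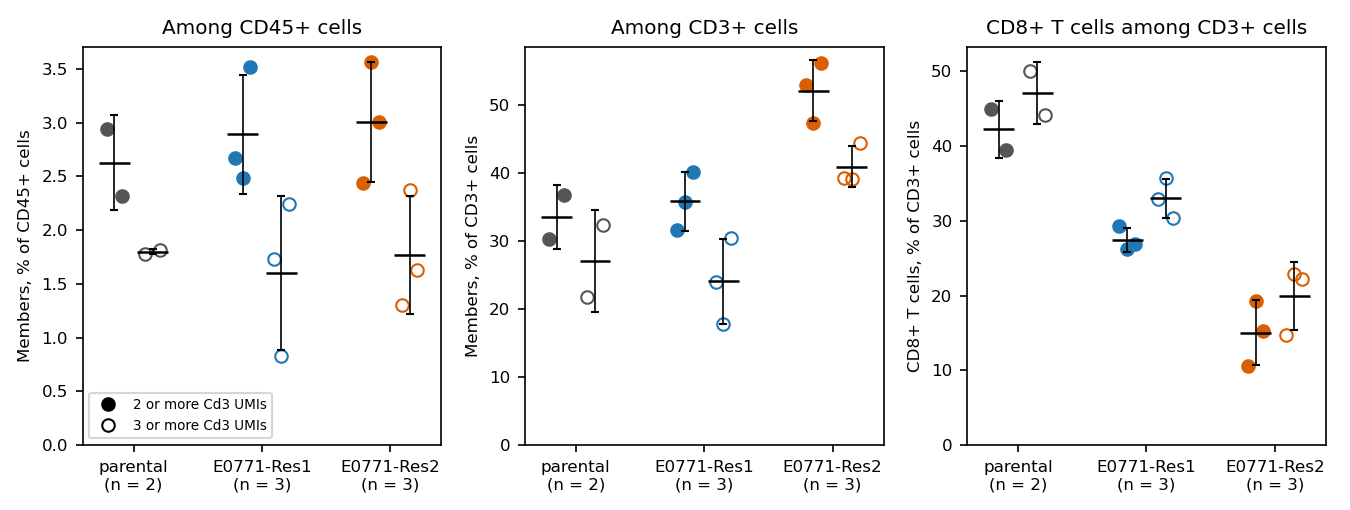
Share of members among CD45+ cells (left, %) and among CD3+ cells (middle, %), and of CD8+ T cells among CD3+ cells (right, %), 1 point per mouse, with the mean and SD of each line; filled points use 2 or more and open points 3 or more Cd3 UMIs. In the middle panel the 3 E0771-Res2 mice (47.4% to 56.2%) lie above all others, and in the right panel they lie lowest.

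The makeup of the members by Cd4 and Trdc was not shown to differ between lines. Cd4-positive cells were 27.3% and 35.7% of the members of parental mice. Their shares were 35.2%, 6.67% and 30.3% for E0771-Res1 and 37.8%, 31.5% and 30.5% for E0771-Res2. The value of 6.67% was 1 of 15 members of E0771-Res1 replicate 2, of which only 5 held 3 or more Cd3 UMIs. The difference of resistant from parental mice was -2.84 points (exact permutation p = 0.75), without that mouse it was 1.56, and at 3 or more Cd3 UMIs it was -4.02. Cells with Trdc, whether or not they held Cd4, were 6.06% and 21.4% of the members of parental mice. Their shares were 3.70%, 20.0% and 9.09% for E0771-Res1 and 4.44%, 5.56% and 1.69% for E0771-Res2, which lay below both parental mice (difference of all resistant mice -6.33 points, exact permutation p = 0.321; of E0771-Res2 -9.85 points, exact permutation p = 0.10, the smallest possible). Without parental replicate 3, whose 21.4% was 3 of 14 cells, the difference of all resistant mice was 1.35, and at 3 or more Cd3 UMIs with all mice it was 1.05.

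Gene expression in the members showed no edgeR call between resistant and parental tumors, which does not show that expression was the same. On counts simulated with 1 fixed spread for all genes, this comparison recovered 34.5% of the genes changed by a log2 of 1.5. The simulated mice did not vary in the makeup of their members, so the share recovered in real mice can differ. With edgeR, 0 of 4117 genes passed (0%) for all resistant mice, for E0771-Res1 and for E0771-Res2 against parental, while 217, 189 and 278 genes had an unadjusted p under 0.05, and DESeq2 called 1, 1 and 2. These comparisons share the 2 parental mice, and leaving out parental replicate 1 gave 1 call in each of the 3, as did leaving out E0771-Res1 replicate 1 in the first and any E0771-Res1 mouse in the last. Nkg7 had the log2 difference -1.26 in resistant mice (edgeR adjusted p = 0.911). Klra7, an inhibitory receptor of NK and some T cells, had -3.17 (edgeR adjusted p = 0.103) and, at 3 or more Cd3 UMIs, -2.97 (edgeR adjusted p = 0.0544). It was the 1 gene that DESeq2 called for all resistant mice (-3.40, DESeq2 adjusted p = 0.000496). Klra7 stood at 90.2 and 275 CPM in parental mice, against 0 to 29.6 in the 6 resistant mice and 1.57 to 4.71 in the myeloid cells of the 8 mice. Of the genes tested, 8.79% did not overlap between parental and resistant members. All 6 tested genes of the NK cell list, 1 of 24 lists, had a negative difference with a median of -1.15, beside 0.00 over all genes, and none passed. Other lists also leaned to 1 side. At 3 or more Cd3 UMIs, 1 of 22 genes of the interferon response list had a positive difference (median -0.81). There 23 of 29 genes of the oxidative phosphorylation list had one (median 0.20), beside a median of 0.01 over all genes. No gene of these lists passed.

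Cxcl9, a chemokine induced by interferon gamma, was at 3 or more Cd3 UMIs the 1 gene that passed between resistant and parental members, at -3.27 (edgeR adjusted p = 0.0028). Cxcl9 stood there at 322 and 264 CPM in parental mice, 36.5 and 54.0 for E0771-Res1 replicates 1 and 3, and 8.6, 10.7 and 36.5 for E0771-Res2. E0771-Res1 replicate 2 had too few cells to enter. Among all members, where E0771-Res1 replicate 3 was at 982, the difference was -0.67 (edgeR adjusted p = 0.981). Cxcl9 in myeloid cells was at 500 and 305 CPM in parental mice and 144 to 392 in resistant mice, and the part of myeloid RNA in the members' difference was not tested. Cd4-positive members alone could not be compared between resistant and parental tumors, because the parental mice held 9 and 5 such cells.

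Between the 2 resistant lines, 6 of 4117 genes passed (0.146%), all higher in E0771-Res2 members, and the mice of the 2 lines did not overlap in 13.4% of the genes tested. Fabp5, a fatty acid-binding protein, was higher by 1.75 (SE 0.22, edgeR adjusted p = 0.00309), Gpnmb, a glycoprotein of lipid-laden macrophages, by 3.05 (SE 0.41, edgeR adjusted p = 0.00461) and Ctsk, the protease cathepsin K, by 3.48 (SE 0.51, edgeR adjusted p = 0.00644). Jun (1.27) and Hspa1b (1.81), an immediate early and a heat shock gene of the dissociation stress list, and Rgl1 (1.55) were the others. DESeq2 called 12.

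Fabp5 was at 1280.4 and 748 CPM in the members of parental mice, with 1004, 877 and 820 for E0771-Res1 and 2804, 2567 and 3408 for E0771-Res2. Gpnmb was at 49.6 and 123 in parental mice, with 28.6, 65.7 and 60.2 for E0771-Res1 and 293, 244 and 541 for E0771-Res2. For both genes every E0771-Res2 mouse lay above every other mouse. In myeloid cells of the same tumors, Fabp5 was at 2525, 2137 and 2503 in E0771-Res2 and 977 to 1584 in the other mice, and Gpnmb at 394, 304 and 369 against 71.2 to 96.0. Ctsk in myeloid cells stood at 98.2, 81.2 and 113 in E0771-Res2 and at 15.9 to 25.6 in the others, and in members at 83.2, 86.5 and 196 against 7.1 to 21.9. In E0771-Res2, Fabp5 was higher in the members than in the myeloid cells of each mouse. Gpnmb and Ctsk were higher in the members of some of these mice and lower in others. In E0771-Res1, every Gpnmb value of the members lay below the myeloid range.

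After the members highest in myeloid RNA were left out, none of the 6 passed, with Gpnmb at 2.78 and Fabp5 at 1.51 (edgeR adjusted p = 0.0526 for each). Under the gate of 3 or more Cd3 UMIs, without E0771-Res1 replicate 2, 8 genes passed, 5 higher and 3 lower, of which 2 higher genes were shared, Gpnmb (3.51) and Ctsk (5.56). The 6 calls became 29 without E0771-Res1 replicate 1 and 2 without E0771-Res2 replicate 3. The part of myeloid RNA in these differences was not tested further. Fabp5 lies at chr3:10012548-10016607 and Gpnmb at chr6:49036546-49070929, both on the plus strand (GRCm38).

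**Figure D5:**
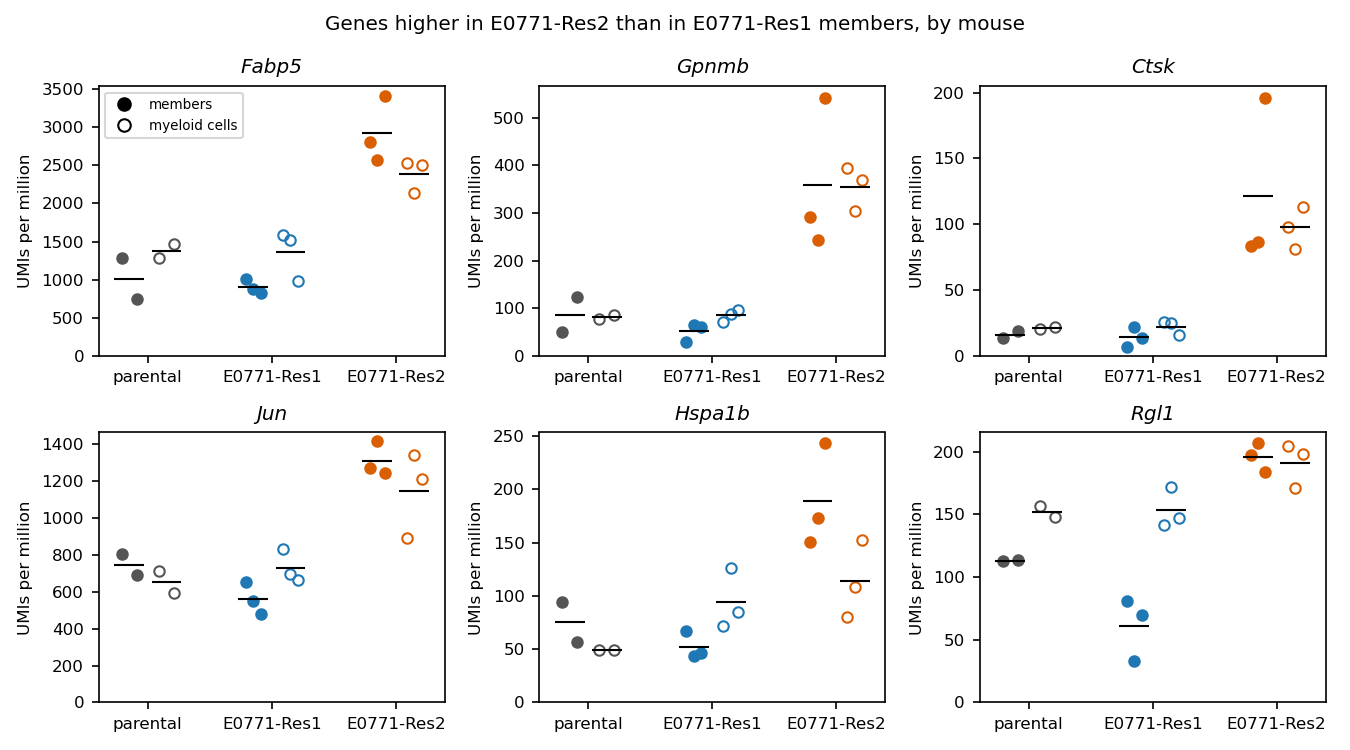
CPM (y axis) of the 6 genes higher in E0771-Res2 than in E0771-Res1 members, 1 point per mouse with the mean as a horizontal line, in members (filled) and in myeloid cells of the same mice (open), by line (x axis). For Fabp5, Gpnmb and Ctsk the open points rise with the filled ones in E0771-Res2, with Gpnmb at 244 to 541 in members and 304 to 394 in myeloid cells.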

How the data were processed

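The authors tagged CD45+ cells of each mouse, pooled them, made 3′ libraries and counted UMIs with Cell Ranger, and the submitters' processing notes also name Seurat and the build mm10. One matrix of counts was deposited for each mouse, as raw UMI counts of 32285 genes and 9 tags without normalization, and the tags were left out here. Kept were 10605 of 11430 cells, those in which 500 to 6000 genes were seen and mitochondrial transcripts took under 10%. Doublets were not removed. Members' counts were summed per mouse; classes with under 10 cells in a mouse were left out. Mitochondrial, Rpl, Rps, Gm and gate genes were not tested. The main test was edgeR 4.0.16 (quasi-likelihood, TMM factors, filterByExpr, Benjamini-Hochberg, threshold 0.05), with mouse as a block between classes of cells and a common fit of the 3 lines between lines; DESeq2 1.42.0 was an alternative. The edgeR test was tested on simulated counts with a fixed spread, in which 200 genes were changed by a log2 of 1.5. It recovered 34.5% of them between resistant and parental members and 71.5% to 76.5% between classes of cells. Shares used exact two-sided permutation tests over mice. Genes were named by a rule: a list of 35 described genes, the 4 largest calls per gene list and direction, and the 5 largest calls per direction whose mice did not overlap; Klra7, Cxcl9 and the genes given only as shares of cells were chosen after their values were seen. The members, the 24 gene lists and the tests were chosen with earlier results of these data known. Replicate numbers did not pair the mice. One parental mouse of the study was not analysed here. Cells of a mouse are not replicates, and per-cell shares cover counting error only.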

Additional observations from a re-analysis of the deposited data

Results flagged for a closer look

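Dixon's test, which flags about 1 in 20 groups by chance, was applied to 81 groups of mice and flagged 9. E0771-Res1 replicate 2, with 15 members, accounted for 6 of them. Its share of Cd4-positive members was 6.67%, and in it the log2 difference of members from CD8+ T cells was -5.78 for Ifng (-3.51 to -2.35 in the other mice), -5.90 for Nkg7 (-3.69 to -2.22), -3.62 for Tox (-2.35 to -1.51), -1.30 for Icos (0.18 to 1.28) and 4.82 for Ifitm6 (1.73 to 2.48). In E0771-Res2 replicate 2, the difference of members from CD8+ T cells was 2.44 for Il7r (0.22 to 1.17 in the others) and that from Foxp3+ T cells was -1.31 for Ifng (0.89 to 2.10). In E0771-Res1 replicate 3, the difference of Cd4-positive from Cd4-zero members was -4.92 for Clec4e (-2.56 to -1.87).

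The effect against parental differed between E0771-Res2 and E0771-Res1 members, by the edgeR contrast of both lines, for Fabp5 (1.75), Gpnmb (3.05), Jun (1.27), Ctsk (3.48), Hspa1b (1.81) and Rgl1 (1.55).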

How the results depend on the processing

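Leaving out 1 mouse moved the difference of resistant from parental mice between 0.01 and 0.64 points for the share of CD45+ cells, 7.16 and 13.7 for the share of CD3+ cells, -7.06 and 1.56 for Cd4-positive cells, and -14.0 and 1.35 for Trdc-positive cells; the sign for Cd4-positive and for Trdc-positive cells changed without parental replicate 3 (1.38 and 1.35), and for Cd4-positive cells also without E0771-Res1 replicate 2 (1.56). The share of CD3+ cells in E0771-Res2 stayed 15.3 to 21.9 points above parental and 14.2 to 18.7 above E0771-Res1. At 3 or more Cd3 UMIs and after thinning to 2000 UMIs, the share of CD45+ cells changed sign to -0.11 and -0.22 and that of Trdc-positive cells to 1.05 and 1.16. Calls ranged over left-out mice from 0 to 1 for each line against parental, 2 to 29 between resistant lines, 1 to 25 between Cd4-positive and Cd4-zero members, 1063 to 1255 against CD8+ and 347 to 559 against Foxp3+ T cells. In the order resistant, E0771-Res1 and E0771-Res2 against parental, E0771-Res2 against E0771-Res1, Cd4-positive against Cd4-zero, CD8+ and Foxp3+, no filter on low counts gave 16, 18, 35, 65, 204, 2039 and 824 calls. DESeq2 gave 1, 1, 2 and 12 between lines, 26 by Cd4 and 335 against Foxp3+ T cells. With 3 or more Cd3 UMIs there was 1 call for resistant and 1 for E0771-Res2 against parental, 1 by Cd4 and 142 against Foxp3+ T cells. Keeping mitochondrial, ribosomal and Gm genes gave 1 call for E0771-Res2 against parental, and leaving out members highest in myeloid RNA gave 0 between resistant lines. The cause of these changes was not tested.

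Same-numbered mice did not deviate together (correlations -0.068 to 0.066), and a replicate block gave 6 calls for E0771-Res2 against parental and 10 between resistant lines. Ccr7 against CD8+ T cells, not a call, changed sign with DESeq2 (-0.18) and without E0771-Res1 replicate 3 (-0.33) or E0771-Res2 replicate 3 (-0.06), and ran up to 0.60 without other mice. Il7r against Foxp3+ T cells, also not a call, changed sign without E0771-Res2 replicate 1 (-0.004) or 2 (-0.20) and ran up to 0.21. Cd4-positive members between resistant and parental tumors and Trdc-positive against other Cd4-zero members were not run, since too few cells remained per mouse.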
